A study of Danio rerio with 16 samples.

Results

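The transcripts described here encode the translation initiation factors (eIF) and elongation factors (eEF) of the zebrafish, Danio rerio, and the proteins named after them that modify or restrain them. Members were all genes whose name begins with eif1 to eif6, eef1 or eef2, whatever their values, and 80 of the 26183 genes in the deposited tables met that rule. They were measured by RNA sequencing in larvae 7 days old at the end of a 7-day exposure, in 16 libraries of 4 groups. The control larvae received the solvent dimethyl sulfoxide (DMSO; n = 4), and the exposed larvae received perfluorobutanoic acid (PFBA), a short-chain perfluorinated carboxylic acid, at 0.1 µg/L (n = 3), 1 µg/L (n = 4) or 10 µg/L (n = 5). The sources used here name no strain, genotype or sex and do not say how many larvae made up a sample. They also do not say whether the samples of a group came from separate tanks, so p-values measure only the spread between these samples. Polyadenylated RNA was made into strand-specific libraries.

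Translation begins when the cap-binding complex eIF4F (the cap-binding protein eIF4E, the scaffold eIF4G and the RNA helicase eIF4A) recruits a small ribosomal subunit that carries eIF3 and the initiator tRNA bound to eIF2. The subunit scans for a start codon under the control of eIF1, eIF1A and eIF5, and eIF5B then joins the large subunit. During elongation eEF1A delivers aminoacyl-tRNAs, the eEF1B complex reloads eEF1A with GTP, and eEF2 moves the ribosome along the messenger. In vertebrates many messengers for elongation factors and some for initiation factors share with ribosomal protein messengers a terminal oligopyrimidine start, through which mTORC1 signalling controls their translation. Kinases that phosphorylate eIF2 and proteins that bind eIF4E set the rate of initiation under stress and starvation.

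The libraries held 9708464 to 13862232 counted reads, and the 80 genes took 2.01% to 4.58% of them. Levels are given in CPM, that is counts per 1000000 reads with libraries scaled by the trimmed mean of M values (TMM). Values within a group follow the numbers of the deposited columns: 1, 3, 4 and 5 in controls, 1 to 3 at 0.1 µg/L, 1, 2, 4 and 5 at 1 µg/L and 1 to 5 at 10 µg/L. Of the 80 genes 74 had enough reads for a test across 19092 genes. The other 6 (eef2a.1, eif1ad, eif2b1, EIF3J, eif4a1b and eif4e1b) had 2 to 7 reads over all 16 libraries and were not tested. The lowest dose held a pair of libraries, 1 and 2, unlike all others, called here the 2 distinct libraries. They had TMM factors of 0.58 and 0.74, while the other 14 lay between 0.93 and 1.14. The 80 genes took 4.58% and 4.26% of their reads, against 2.01% to 3.86% elsewhere. All 17 listed skeletal muscle genes were found under 18 identifiers, and these summed to 178075 and 110625 CPM in the 2 libraries, against 11669 to 65946 CPM in the other 14. The 80 cytosolic ribosomal protein genes summed to 376888 and 248927 CPM, against 78102 to 141301 CPM elsewhere. On the same TMM scale, 12 of 13 listed brain and neuron genes summed to 6275 and 6789 CPM, within the 6154 to 8077 CPM of the others. The factors of 0.58 and 0.74 raise every level in the 2 libraries. These sums were not made with libraries scaled by size alone, and how the lists compare can change with the scaling. Listed liver, exocrine pancreas, intestine and lens genes also had their highest sums in library 1 at 0.1 µg/L. The muscle, liver, pancreas and intestine sums were lowest in library 3 of the 10 µg/L group. The part of these organ and ribosomal transcripts in the results was not tested. The tests at 0.1 µg/L are set beside fits without the 2 distinct libraries. Such a fit leaves 1 library at that dose, which is assumed to vary like the other groups.

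In control larvae the factors spanned more than 3 orders of magnitude in CPM per kilobase of annotated gene length, the only scale on which levels of different genes are compared here. The elongation factors led, with eef1a1l1 at 1512 ± 485 CPM per kb, eef2b at 1441 ± 374 and eef1g at 1339 ± 213 (SD, n = 4), and the spread of these 3 overlapped. Next came eif1, a scanning factor, at 399 ± 11.5, then eif3f, eif5a and eif3g at 344 ± 37.8, 339.8 ± 77.1 and 312 ± 31.1 CPM per kb (SD, n = 4), whose ranges overlapped as well. The 4 genes for eIF2 alpha kinases lay far lower and ranged from 0.735 CPM per kb for eif2ak2 to 8.07 for EIF2AK4. The cap-binding genes were also low, from 0.426 CPM per kb for eif4eb to 16.8 for eif4e3. The group of eIF4E binding proteins overlapped that range, from 6.88 CPM per kb for eif4enif1 to 82.8 for eif4ebp2, an eIF4E inhibitor.

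**Figure D1:**
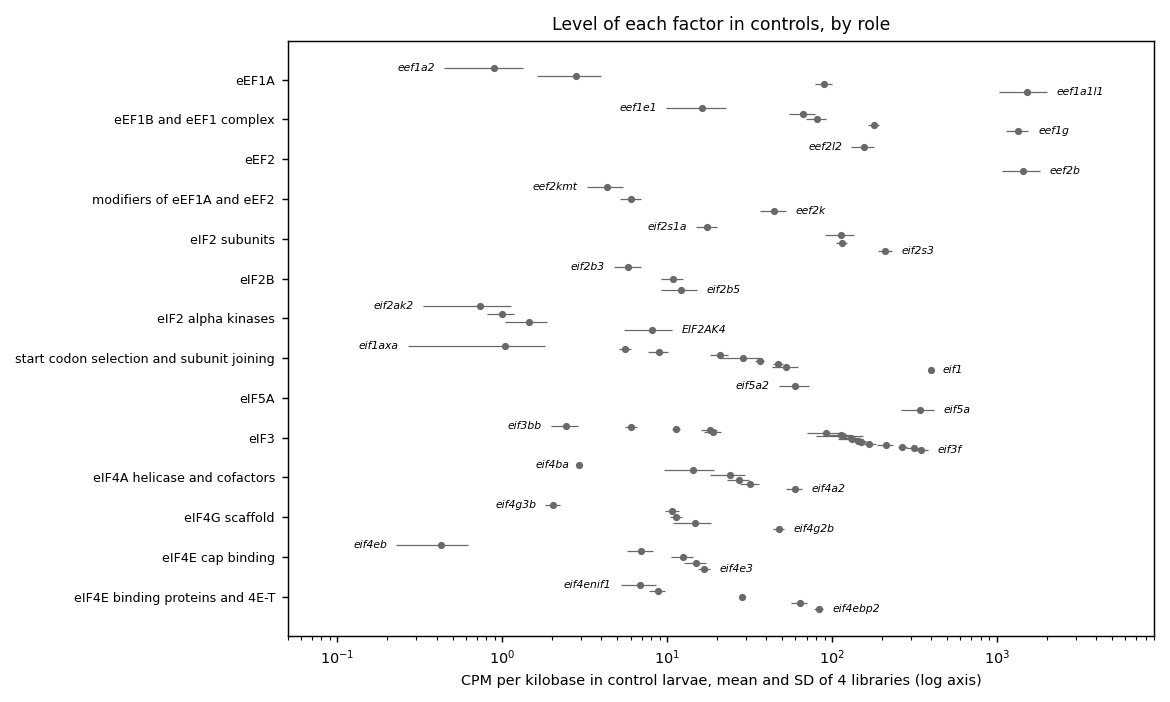
Mean level of the 74 tested factors in control larvae on a log axis of CPM per kilobase, with bars for the SD of 4 libraries and rows for role groups. The lowest and highest gene of each row is named. The elongation factors eef1a1l1, eef2b and eef1g are the highest, at 1512, 1441 and 1339 CPM per kb, and the eIF2 alpha kinases lie at or below 8.07.

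Zebrafish keep 2 copies of many of these genes, and in controls 1 copy usually carried most of the transcript. eif3ba, the scaffold subunit eIF3b, was 48.4 times as high per kilobase as eif3bb (36.7 to 58.2 times over the 4 control libraries). eif3ea was 21.8 times as high as eif3eb, eif2s1b 6.52 times as high as eif2s1a, and eif4ea 16.4 times as high as eif4eb, in each case in 4 of 4 control libraries. eif3ja and eif3jb were nearly level, at a ratio of 1.05, with eif3ja higher in 3 of 4 libraries. On the same strand the span of eif3ja shares 6760 bases with EIF3J, and that of eif2s1b 18899 bases with AL928824.2. The ratios of these copies are therefore less certain. Per kilobase the copy named a was not always the higher one. There eef1da stood at 0.452 times the level of eef1db and eif4ba at 0.205 times that of eif4bb. In CPM without division by length eef1da was the higher, with control means of 466 CPM and 349 CPM for eef1db. The order of that pair thus rests on their annotated lengths of 5750 and 1946 bases. eif4ba was lower than eif4bb in CPM too, with control means of 18.7 and 35.2 CPM. Reads that copies share can be split or lost in counting, so ratios between near-identical copies are less certain than the values of either gene across libraries.

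At 10 µg/L, the highest dose, none of the 74 factors passed at an adjusted p below 0.05 in edgeR's quasi-likelihood test (0 of 74), where 0.225% of all genes passed. At an unadjusted p below 0.05, eif4e3 and eif4g3b were higher and eif4e2 was lower, that is 2 and 1 of 74, beside 3.58% and 4.65% of all genes. DESeq2 and limma-voom also called 0 of 74 at this dose. The median log2 fold change over the 74 genes was 0.01, beside -0.02 over all genes tested. At 1 µg/L again 0 of 74 passed, beside 0.0681% of all genes, and DESeq2 and limma-voom called 0 of 74. Shares over all genes under those 2 tools are not given at either dose, so their counts do not set the factors apart from other genes. At an unadjusted p below 0.05, 4 were higher (eef1a1l2, eif2b3, eif4e3 and eif4ebp1) and 1 lower (eif4e2), beside 1.92% and 2.97% of all genes. Their median log2 fold change at 1 µg/L was 0.18, beside -0.02 over all genes, and 58 of 74 lay above 0, beside 47.8% of all genes. With libraries scaled by size alone it was 0.12, beside -0.07 over all genes, and 52 of 74 lay above 0. Over the alternative fits this median of the factors ran from 0.10 to 0.22.

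At 0.1 µg/L, the group that holds the 2 distinct libraries, 0 of 74 factors and 0% of all genes passed the adjusted threshold in edgeR. DESeq2 called 30 of 74, beside 7.5% of all genes, and limma-voom 0, for which no share over all genes is given. In edgeR 38 of 74 were higher and 1 lower at an unadjusted p below 0.05, beside 12.2% and 9.59% of all genes. The median log2 fold change was 0.55, beside -0.09 over all genes, and 61 of 74 lay above 0, beside 44.5% of all genes. With libraries scaled by size alone, that is without TMM, the median was 0.02 beside -0.50 over all genes, and 38 of 74 lay above 0. Above the all-gene median lay 66 of 74 under both scalings. Without libraries 1 and 2 the median was 0.00 and 37 of 74 lay above 0, and 29 of the 61 turned below 0. Whether fewer or more cells of a type, or less or more RNA per cell, lay behind a difference cannot be told apart in RNA of larvae.

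Taking the 4 groups at once, 5 of 74 factors passed at an adjusted p below 0.05, beside 2.34% of all genes, and they were eef1da, eef1db, eif2s2, eif3k and eif6. At an unadjusted p below 0.05, 39 of 74 differed among the groups, beside 20.5% of all genes. DESeq2 called 31 of 74 over the 4 groups, beside 12.5% of all genes. Without libraries 1 and 2 at 0.1 µg/L, 1 library remains at that dose. The log2 fold changes there were then 0.01 for eef1da, -0.01 for eef1db, -0.07 for eif2s2, 0.06 for eif3k and 0.07 for eif6. The trend over equal steps from control to 10 µg/L called 0 of 74, beside 0.288% of all genes, and DESeq2 and limma-voom also called 0. No share over all genes is given for those 2 tools on the trend. At an unadjusted p below 0.05 the trend was upward for eif4e3 (slope 0.11 per step, edgeR adjusted p = 0.332) and downward for eif4e2 (slope -0.16, adjusted p = 0.315), beside 4.2% and 5.88% of all genes.

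**Figure D2:**
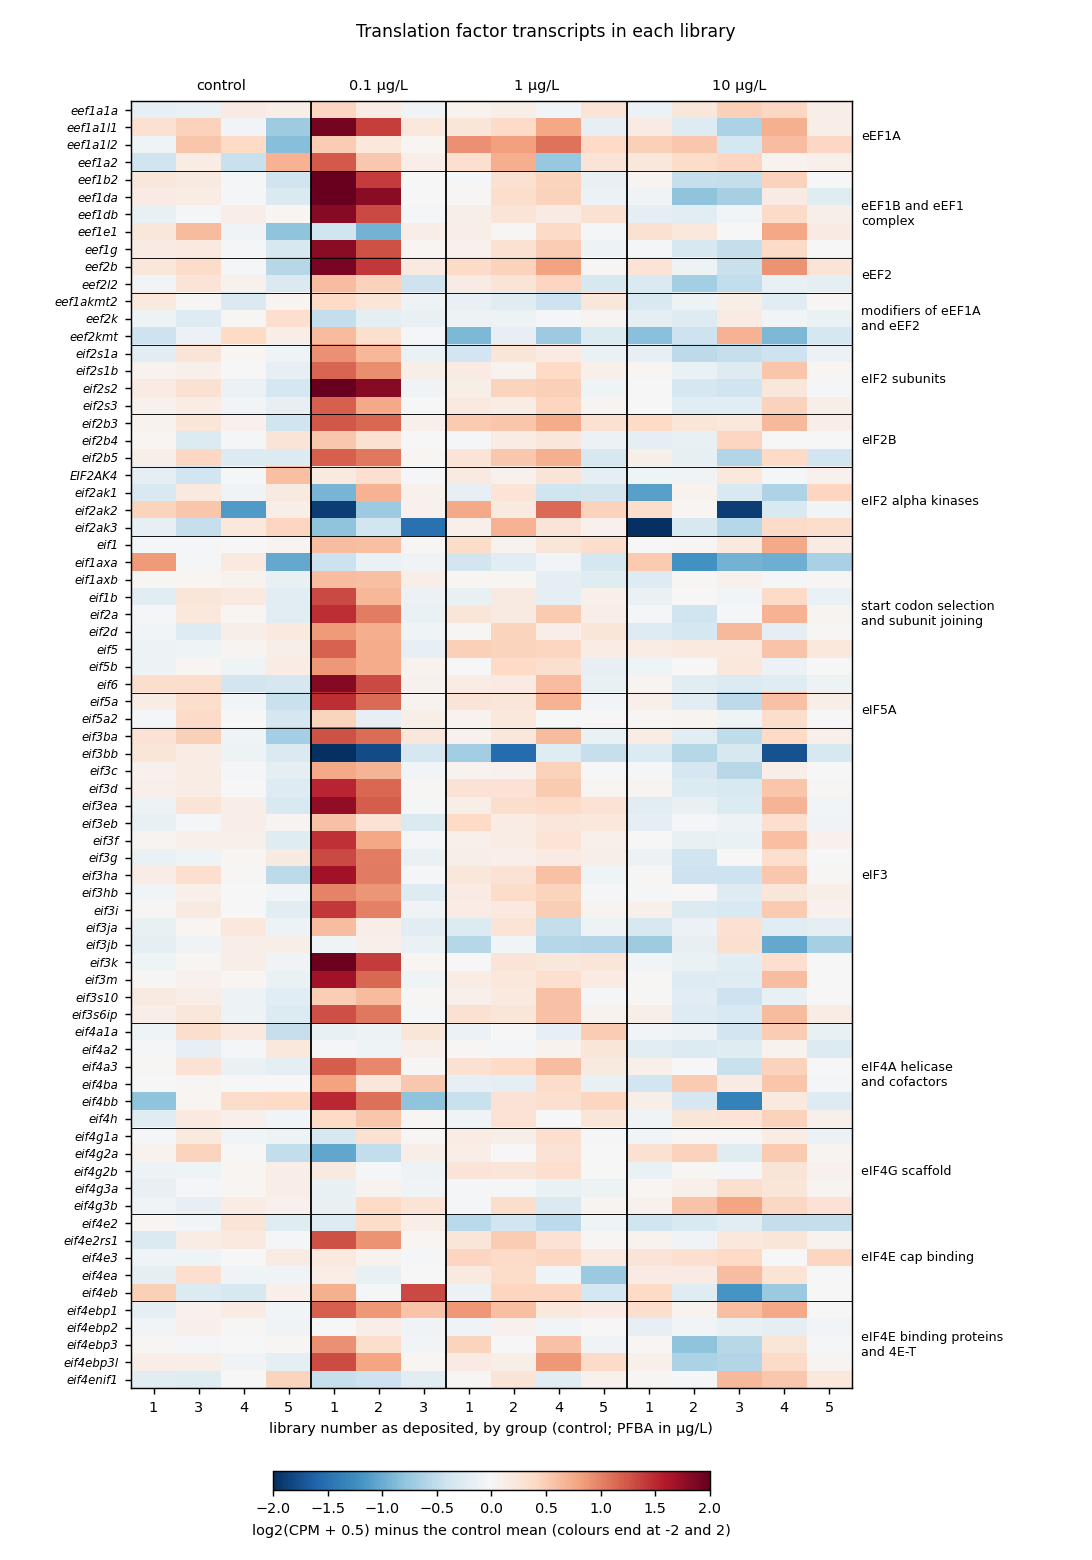
Level of each of the 74 tested factors in the 16 libraries, as log2(CPM + 0.5) minus the control mean of that gene; columns are libraries by group, rows are genes by role, and colours end at -2 and 2. Libraries 1 and 2 at 0.1 µg/L are red over most rows of eEF1B, eEF2, eIF2 and eIF3, while the eIF4G and eIF2 alpha kinase rows are not.

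The higher levels in the 2 distinct libraries were counted by role, in TMM-scaled CPM. Their TMM factors of 0.58 and 0.74 raise every level in these libraries. The counts by library order were not made with libraries scaled by size alone, and can change with the scaling. Library 1 at 0.1 µg/L held the highest level of the 16 libraries for 46 of 74 factors and library 2 for 5, beside 28.1% of all genes for either. Both libraries lay above each of the other 14 for 37 of 74 factors and below each of them for 2 (eif3bb and eif4enif1), beside 14.3% and 17.9% of all genes. The 37 included 4 of 5 eEF1B and eEF1 complex genes, 2 of 2 eEF2 genes, 4 of 4 eIF2 subunits, 12 of 17 eIF3 genes and 7 of 9 genes of start codon selection and subunit joining. They included 0 of 5 eIF4G genes, 0 of 4 eIF2 alpha kinases and 0 of 5 eIF4E binding protein genes, groups too small to set against the share over all genes. No difference between roles was tested. Among the other 14 libraries, the highest level was in library 4 at 10 µg/L for 22 of 74 factors and in the library numbered 4 at 1 µg/L for 21, and library 3 at 10 µg/L held the lowest for 17. Over all 19092 genes tested the matching counts were 2702, 1884 and 3295. With libraries scaled by size alone the all-gene median at 0.1 µg/L moved to -0.50, from -0.09 under TMM, and role medians moved with it. They then lay below 0 but above the all-gene median for eEF1A (-0.04), eIF4A and its cofactors (-0.01), the eIF4E genes (-0.31), the eIF4E binding proteins (-0.07), the modifiers of eEF1A and eEF2 (-0.30) and eIF4G (-0.44). The median of the 4 eIF2 alpha kinases lay below the all-gene median under both scalings, at -0.82 by size alone and -0.43 under TMM.

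**Figure D3:**
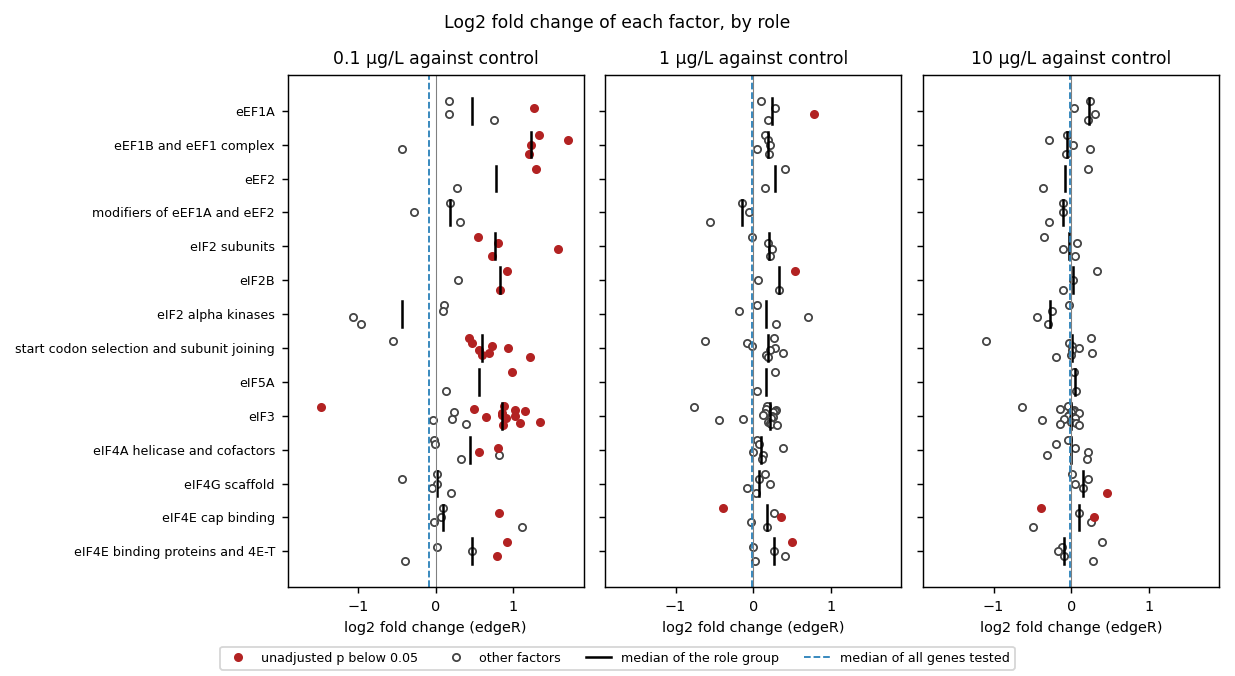
Log2 fold change of each tested factor at 0.1, 1 and 10 µg/L against control, from edgeR, in rows by role; red points have an unadjusted p below 0.05, black bars are role medians and the dashed line is the median of all genes tested. At 0.1 µg/L the eEF1B and eEF1 complex median is 1.22 and the eIF4G median 0.01, and at 10 µg/L the points centre near 0.

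Groups that did not overlap library by library were counted without a test. At 10 µg/L all exposed libraries lay above all controls for 1 of 74 factors (eif5) and below for 0, beside 2.32% and 2.83% of all genes. At 1 µg/L the counts were 7 (eif1, eif2b3, eif3eb, eif3m, eif4e3, eif4ebp1 and eif5) and 0, beside 2.8% and 2.63%. At 0.1 µg/L they were 4 (eif1axb, eif2s1b, eif4ba and eif4ebp1) and 1 (eif3bb), beside 3.57% and 5.16% of all genes.

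eEF1A, the GTPase that brings aminoacyl-tRNA to the ribosome, was measured from 4 genes. eef1a1l1, the main copy, had 10468, 11622, 8187 and 5179.8 CPM in controls, 31933, 22183 and 9779.6 CPM at 0.1 µg/L, 10007, 11001, 14414 and 7599.9 CPM at 1 µg/L and 9527, 7121, 5456, 13838 and 9226 CPM at 10 µg/L. Libraries 1 and 2 at 0.1 µg/L lay above all others, and the remaining exposed libraries overlapped the controls. The test at 0.1 µg/L did not pass (log2 fold change 1.26, SE 0.39, edgeR adjusted p = 0.112). Without the 2 distinct libraries its value was 0.17. eef1a1a, against which eef1a1l1 was 16.8 times as high per kilobase in controls, had 291, 297, 364 and 357 CPM in controls, 437, 359 and 311 CPM at 0.1 µg/L, 344, 354, 313 and 388 CPM at 1 µg/L and 302, 379.6, 452, 434 and 359 CPM at 10 µg/L. Its groups overlapped at each dose, without a call at 10 µg/L (log2 fold change 0.23, SE 0.15, edgeR adjusted p = 0.775). eef1a1l2 had 5.4, 8.74, 7.74 and 2.97 CPM in controls, 8.45, 6.74 and 5.94 CPM at 0.1 µg/L, 11.4, 10.6, 12.9 and 7.77 CPM at 1 µg/L and 8.25, 8.67, 4.42, 9.17 and 7.91 CPM at 10 µg/L. At 1 µg/L 3 of 4 libraries lay above every control (log2 fold change 0.77, SE 0.31, edgeR unadjusted p = 0.0241, adjusted p = 0.985). eef1a2, the copy that mammals use in muscle and neurons, was near the detection limit, with 1.16, 1.93, 1.11 and 3.05 CPM in controls, 4.6, 2.7 and 1.89 CPM at 0.1 µg/L, 2.25, 3.12, 0.795 and 2.12 CPM at 1 µg/L and 2.06, 2.32, 2.46, 1.8 and 1.84 CPM at 10 µg/L. Its values overlapped among all groups and did not follow those of eef1a1l1.

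The eEF1B complex reloads eEF1A with GTP, and 2 of its genes differed among the 4 groups. eef1da, a delta subunit with exchange activity, had 520.2, 513, 452 and 379 CPM in controls, 2485, 1612 and 461 CPM at 0.1 µg/L, 469, 593, 636 and 427 CPM at 1 µg/L and 440.3, 266, 291, 519 and 392 CPM at 10 µg/L. It passed over the 4 groups (edgeR adjusted p = 0.0202), while at 0.1 µg/L alone it did not (log2 fold change 1.70, SE 0.38, edgeR adjusted p = 0.0858). Over the 4 groups it passed in 13 of 16 fits that each left out 1 library, and the adjusted p was 0.842 without libraries 1 and 2 at 0.1 µg/L. At 10 µg/L libraries 2 and 3 lay below all controls, but the groups overlapped (log2 fold change -0.29, SE 0.33, edgeR adjusted p = 0.928). Its copy eef1db had 314, 343, 379.9 and 359 CPM in controls, 1226, 872 and 341 CPM at 0.1 µg/L, 377, 419, 389.6 and 428 CPM at 1 µg/L and 306, 297, 335, 455 and 379 CPM at 10 µg/L. It passed over the 4 groups (edgeR adjusted p = 0.0451), with an adjusted p of 0.96 without the 2 distinct libraries. It stayed called in 3 of 16 fits that left out 1 library. At 1 µg/L 3 of 4 libraries of eef1db lay above every control, with a log2 fold change of 0.21 (SE 0.26).

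eef1b2, the beta subunit that exchanges the nucleotide, had 438, 426, 369 and 285 CPM in controls, 1494, 990.4 and 376 CPM at 0.1 µg/L, 368, 465, 509.8 and 337 CPM at 1 µg/L and 387, 272, 268, 515 and 377 CPM at 10 µg/L. Its adjusted p over the 4 groups was 0.0503 in edgeR, just outside the threshold, and 0.999 without libraries 1 and 2 at 0.1 µg/L. eef1g, the gamma subunit that holds the complex together, had 2246, 2319, 1971 and 1605 CPM in controls, 7042, 4869 and 2063 CPM at 0.1 µg/L, 2143, 2499, 2872 and 1868 CPM at 1 µg/L and 1986, 1613, 1442, 2634 and 1998 CPM at 10 µg/L. In both genes libraries 1 and 2 at 0.1 µg/L were the highest and library 3 at 10 µg/L the lowest. eef1e1, whose mammalian product belongs to the multi-tRNA synthetase complex, had 18.4, 24.4, 14.9 and 8.74 CPM in controls, 11.7, 7.88 and 17.1 CPM at 0.1 µg/L, 17.2, 15.8, 20.5 and 15.1 CPM at 1 µg/L and 19.4, 18.1, 15.7, 26.9 and 17.6 CPM at 10 µg/L. Here library 2 at 0.1 µg/L was the lowest of all 16 and library 4 at 10 µg/L the highest, so this gene did not share the pattern of the exchange factor (log2 fold change at 0.1 µg/L -0.44, SE 0.31).

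**Figure D4:**
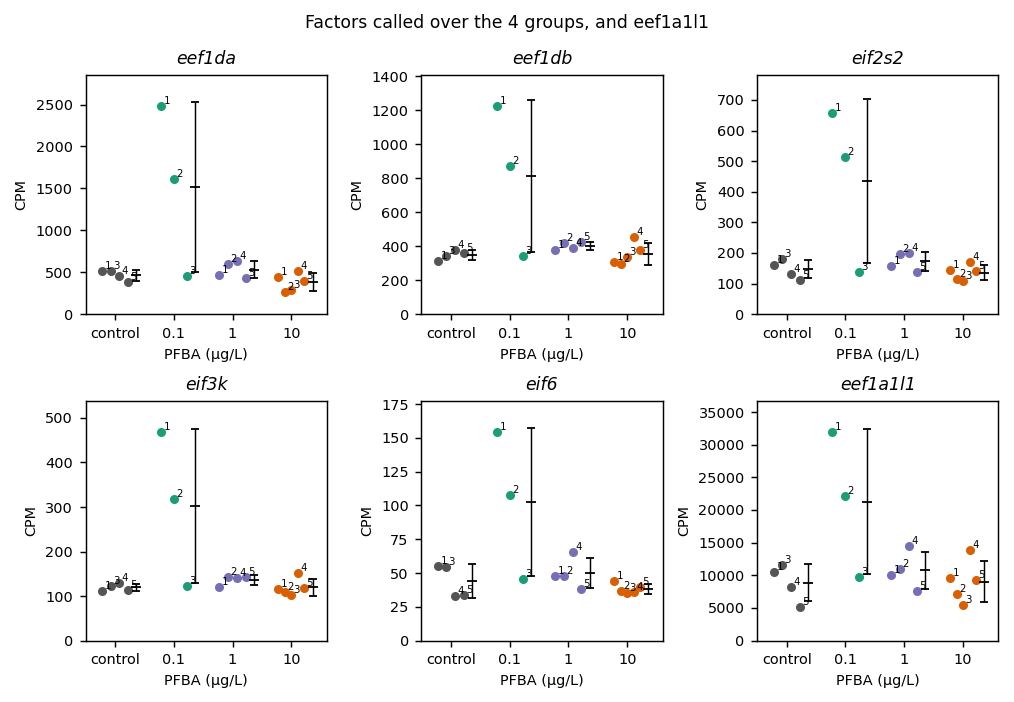
CPM in each library of the 5 factors called over the 4 groups and of eef1a1l1, by PFBA dose, with library numbers beside the points and mean ± SD bars at the right of each group (n = 4, 3, 4 and 5). Libraries 1 and 2 at 0.1 µg/L lie above the other 14 in each panel, and library 3 at that dose lies among the controls.

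eEF2, the GTPase of translocation, was measured from eef2b and eef2l2. eef2b, 9.27 times as high per kilobase as eef2l2 in controls, had 4667, 5131, 3904 and 2698 CPM in controls, 14852, 10661 and 4524 CPM at 0.1 µg/L, 5171, 5478, 6972 and 4049 CPM at 1 µg/L and 4831, 3710.0, 2921, 7455 and 4780.1 CPM at 10 µg/L. The libraries at 0.1 µg/L split as for eef1a1l1, and library 4 led both other doses (log2 fold change 1.29, SE 0.37, edgeR adjusted p = 0.0937 at 0.1 µg/L; log2 fold change 0.17 without libraries 1 and 2). eef2l2 had 541, 678, 599 and 463 CPM in controls, 866, 776 and 425 CPM at 0.1 µg/L, 635, 678, 764 and 454 CPM at 1 µg/L and 463, 351, 403, 509.9 and 493 CPM at 10 µg/L. At 10 µg/L 3 of 5 libraries lay below every control, library 1 by less than 1 CPM, without passing the test (log2 fold change -0.36, SE 0.21, edgeR adjusted p = 0.722). Of the enzymes that act on these factors, eef2k, the kinase that phosphorylates and slows eEF2, had 127, 113, 137 and 172 CPM in controls, 96.9, 120.4 and 122 CPM at 0.1 µg/L, 127, 126, 133 and 142 CPM at 1 µg/L and 118, 114, 151, 131 and 124 CPM at 10 µg/L. Its 16 values ran from 96.9 CPM in library 1 at 0.1 µg/L to 172 CPM in control library 5. The log2 fold changes were -0.28 (SE 0.16), -0.06 (SE 0.14) and -0.11 (SE 0.14) at 0.1, 1 and 10 µg/L. eef1akmt2, a lysine methyltransferase of eEF1A, had 8.64, 7.63, 6.02 and 7.78 CPM in controls, 9.94, 8.92 and 6.88 CPM at 0.1 µg/L, 6.66, 6.23, 5.48 and 8.79 CPM at 1 µg/L and 5.98, 6.89, 8.16, 6.38 and 7.63 CPM at 10 µg/L. Its groups overlapped at each dose, as did those of eef2kmt, which methylates eEF2 and ranged from 4.03 to 13.3 CPM over the 16 libraries.

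eIF2 brings the initiator tRNA, and its beta subunit gene eif2s2 differed among the 4 groups. eif2s2 had 162, 179, 133 and 113 CPM in controls, 658, 512 and 137 CPM at 0.1 µg/L, 156, 198, 201 and 136 CPM at 1 µg/L and 146, 115, 109, 169.9 and 139.9 CPM at 10 µg/L. It passed over the 4 groups (edgeR adjusted p = 0.0282) but not at 0.1 µg/L alone (log2 fold change 1.57, SE 0.35, edgeR adjusted p = 0.0858). The 4-group call held in 11 of 16 fits that left out 1 library, and the adjusted p was 0.927 without libraries 1 and 2 at 0.1 µg/L. eif2s1b, the main gene for the alpha subunit, which the stress kinases phosphorylate, had 161, 164, 153 and 136 CPM in controls, 345, 292 and 167 CPM at 0.1 µg/L, 171, 161, 201 and 165 CPM at 1 µg/L and 157, 140.1, 128, 226 and 157 CPM at 10 µg/L. All 3 libraries at 0.1 µg/L lay above every control, library 3 by a small margin (log2 fold change 0.80, SE 0.22, edgeR adjusted p = 0.0864; 0.14 without libraries 1 and 2). Its minor copy eif2s1a had 22.7, 31.7, 27.4 and 25.0 CPM in controls, 50.4, 42.5 and 24.1 CPM at 0.1 µg/L, 20.2, 31.4, 29.6 and 24.2 CPM at 1 µg/L and 23.5, 18.3, 19.1, 19.7 and 24.3 CPM at 10 µg/L. At 10 µg/L 3 of 5 libraries of eif2s1a lay below every control, but the difference did not pass (log2 fold change -0.35, SE 0.20, edgeR adjusted p = 0.727). eif2s3, the gamma subunit that binds GTP, had 484, 504, 437 and 404 CPM in controls, 1041, 774 and 453 CPM at 0.1 µg/L, 522, 502, 615 and 475 CPM at 1 µg/L and 456, 394, 395, 628 and 494 CPM at 10 µg/L. Its log2 fold change at 0.1 µg/L was 0.72 (SE 0.23), and 0.01 without libraries 1 and 2. Within eIF2 the beta subunit had the largest fold change at that dose, and these differences between subunits were not tested.

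eIF2B recycles eIF2 by exchanging its nucleotide and is the target that phosphorylated eIF2 alpha blocks. eif2b3, its gamma subunit, had 14.2, 16.0, 14.3 and 10.1 CPM in controls, 32.7, 30.6 and 14.5 CPM at 0.1 µg/L, 19.5, 20.0, 23.0 and 16.8 CPM at 1 µg/L and 18.0, 16.0, 15.6, 21.3 and 14.8 CPM at 10 µg/L. All libraries at 1 µg/L lay above all controls (log2 fold change 0.54, SE 0.23, edgeR unadjusted p = 0.0351, adjusted p = 0.998), and at 10 µg/L 3 of 5 did, library 2 narrowly (log2 fold change 0.33, SE 0.22, edgeR adjusted p = 0.792). eif2b5, the catalytic epsilon subunit, had 23.8, 29.5, 18.1 and 18.0 CPM in controls, 50.7, 46.0 and 22.5 CPM at 0.1 µg/L, 26.6, 32.1, 36.3 and 17.4 CPM at 1 µg/L and 23.8, 19.5, 14.3, 29.0 and 16.7 CPM at 10 µg/L. Outside libraries 1 and 2 at 0.1 µg/L its groups overlapped throughout. eif2b4, the delta subunit, had 72.3, 58.4, 68.9 and 84.6 CPM in controls, 103, 87.1 and 70.7 CPM at 0.1 µg/L, 68.9, 78.3, 82.3 and 65.2 CPM at 1 µg/L and 61.9, 63.6, 95.2, 71.1 and 70.1 CPM at 10 µg/L. Library 1 at 0.1 µg/L was the highest, followed by library 3 of the 10 µg/L group, and no comparison passed (edgeR adjusted p from 0.341 to 0.999 over the doses).

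The 4 eIF2 alpha kinases, which shut down initiation under amino acid lack, haem deficiency, viral RNA and endoplasmic reticulum stress in mammals, had low levels and no difference that passed. EIF2AK4, the amino acid sensor GCN2, had 28.0, 24.2, 30.9 and 48.1 CPM in controls, 35.9, 39.9 and 30.7 CPM at 0.1 µg/L, 35.8, 33.7, 38.1 and 27.7 CPM at 1 µg/L and 29.8, 30.1, 36.9, 30.7 and 33.6 CPM at 10 µg/L. Control library 5 was the highest of the 16, and the groups overlapped. eif2ak3, the endoplasmic reticulum kinase PERK, had 5.48, 4.37, 7.26 and 8.5 CPM in controls, 3.35, 4.67 and 1.89 CPM at 0.1 µg/L, 6.74, 10.4, 7.55 and 6.59 CPM at 1 µg/L and 0.783, 4.88, 4.03, 8.27 and 8.05 CPM at 10 µg/L. Its lowest value was in library 1 at 10 µg/L and the largest difference was at 0.1 µg/L (log2 fold change -0.96, SE 0.54, edgeR adjusted p = 0.298; -1.73 without libraries 1 and 2). eif2ak1, the haem-regulated kinase, ranged from 1.28 to 5.6 CPM, and eif2ak2, the kinase PKR that senses double-stranded RNA, from 0 to 3.58 CPM over the 16 libraries. The gene span of eif2ak1 overlaps usp42 on the same strand over 1245 bases, so its few reads are less certain.

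Among the factors of start codon selection and subunit joining, eif6 differed among the 4 groups. eif6 encodes a factor that keeps the large subunit from joining too early and acts in its assembly, and had 54.8, 54.7, 32.8 and 33.7 CPM in controls, 154, 108 and 45.3 CPM at 0.1 µg/L, 47.6, 48.0, 65.7 and 38.4 CPM at 1 µg/L and 44.2, 36.9, 35.1, 35.9 and 39.6 CPM at 10 µg/L. It passed over the 4 groups (edgeR adjusted p = 0.0412), stayed called in 4 of 16 fits that left out 1 library, and had an adjusted p of 0.953 without libraries 1 and 2 at 0.1 µg/L. At 0.1 µg/L alone it did not pass (log2 fold change 1.22, SE 0.30, edgeR adjusted p = 0.0858). eif5, the GTPase activator that releases eIF2 at the start codon, had 238, 241, 264 and 276 CPM in controls, 574, 425 and 227 CPM at 0.1 µg/L, 353, 348, 342 and 283 CPM at 1 µg/L and 281, 292, 291, 376 and 296 CPM at 10 µg/L. All libraries at 1 µg/L and at 10 µg/L lay above all controls, by a smaller margin than the spread within the exposed groups (log2 fold change 0.38, SE 0.21, edgeR adjusted p = 0.998 at 1 µg/L; log2 fold change 0.27, SE 0.20, edgeR adjusted p = 0.824 at 10 µg/L). Library 3 at 0.1 µg/L lay below the controls, and libraries 1 and 2 were the highest of all.

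eif1, which guards start codon fidelity, had 614, 607, 627 and 648 CPM in controls, 952, 945 and 635 CPM at 0.1 µg/L, 803, 658, 742 and 795 CPM at 1 µg/L and 624, 636, 711, 1059.8 and 696 CPM at 10 µg/L. All 4 libraries at 1 µg/L lay above all controls, whose values were close together (log2 fold change 0.26, SE 0.19, edgeR adjusted p = 0.998). At 10 µg/L library 4 stood far above the other 4 libraries. eif1b, a close relative, had 39.7, 55.0, 53.4 and 40.3 CPM in controls, 117, 73.9 and 42.9 CPM at 0.1 µg/L, 42.1, 52.9, 41.2 and 50.2 CPM at 1 µg/L and 42.4, 46.4, 45.0, 60.8 and 42.4 CPM at 10 µg/L. It was highest in the 2 distinct libraries and otherwise overlapped among groups. Of the 5 others tested, eif1axb, the main gene for the scanning factor eIF1A, reached 111 and 110.4 CPM in libraries 1 and 2 at 0.1 µg/L and 79.5 CPM in library 3, against 65.7 to 76.6 CPM in controls (log2 fold change 0.46, SE 0.15, edgeR adjusted p = 0.113; 0.16 without libraries 1 and 2). eif2a, eif2d and eif5b, which carry initiator tRNA in noncanonical initiation or join the large subunit, had log2 fold changes of 0.93, 0.56 and 0.60 at 0.1 µg/L. The edgeR adjusted p-values were 0.112, 0.223 and 0.112, and without libraries 1 and 2 the log2 fold changes were -0.11, -0.06 and 0.09. eif1axa was near the detection limit, from 0.0774 to 1.93 CPM.

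eIF5A, which helps the ribosome past difficult peptide bonds and carries the modified residue hypusine, was measured from eif5a and eif5a2. eif5a had 849, 981, 736 and 562 CPM in controls, 2133, 1687 and 808 CPM at 0.1 µg/L, 915, 909, 1237 and 741 CPM at 1 µg/L and 824, 661, 531, 1152 and 831 CPM at 10 µg/L. Outside libraries 1 and 2 at 0.1 µg/L its highest values were in library 4 at 1 and at 10 µg/L, and its groups overlapped (log2 fold change 0.98, SE 0.31, edgeR adjusted p = 0.113 at 0.1 µg/L; 0.07 without libraries 1 and 2). eif5a2 had 179.6, 239.7, 185 and 146 CPM in controls, 250.2, 164 and 201 CPM at 0.1 µg/L, 195, 214, 184 and 183 CPM at 1 µg/L and 187, 192, 175, 236 and 183 CPM at 10 µg/L. Unlike for eif5a, library 2 at 0.1 µg/L lay within the control range, and the log2 fold change at 0.1 µg/L was 0.13 (SE 0.18); the difference between the copies was not tested.

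eIF3 is the largest initiation factor, and its subunits hold the small subunit open and bind eIF4G. Of its 17 tested genes 12 were higher and 1 lower at an unadjusted p below 0.05 at 0.1 µg/L, beside 12.2% and 9.59% of all genes, with a median log2 fold change of 0.85. Without libraries 1 and 2 the median was -0.04 and 4 of 17 lay above 0. At 1 and 10 µg/L 0 of 17 met that threshold, with medians of 0.21 and -0.01. With libraries scaled by size alone, 11 of 17 lay above 0 at 0.1 µg/L, with a median of 0.28. eif3k, a small peripheral subunit, was called over the 4 groups (edgeR adjusted p = 0.0282) and had 112, 124, 129 and 114 CPM in controls, 468, 318 and 123 CPM at 0.1 µg/L, 119, 143, 139.6 and 142 CPM at 1 µg/L and 115, 109, 102, 152 and 119 CPM at 10 µg/L. The call held in 10 of 16 fits that left out 1 library, and the adjusted p was 0.971 without libraries 1 and 2 at 0.1 µg/L. eif3f, a core subunit, had 316, 328, 327 and 257 CPM in controls, 839, 524 and 298 CPM at 0.1 µg/L, 326, 338, 370.1 and 327 CPM at 1 µg/L and 305, 275, 278, 462 and 326 CPM at 10 µg/L. Control library 5 was below the other controls and library 4 at 10 µg/L above the other libraries of its dose. eif3g, which acts in scanning, had 304, 317, 343 and 379.8 CPM in controls, 837, 682 and 304 CPM at 0.1 µg/L, 361, 361, 374 and 362 CPM at 1 µg/L and 307, 253, 333, 424 and 333 CPM at 10 µg/L. Its values at 1 µg/L lay close together, within the control range.

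The a and b copies of eIF3 subunits differed in level, and in the 2 distinct libraries not all deviated the same way. eif3ba had 364, 417, 281 and 187 CPM in controls, 726, 646 and 348 CPM at 0.1 µg/L, 317, 350.5, 466 and 273 CPM at 1 µg/L and 333, 257, 210.4, 393 and 321 CPM at 10 µg/L. Its minor copy eif3bb had 5.79, 5.41, 4.43 and 3.85 CPM in controls, 0.373, 1.04 and 3.7 CPM at 0.1 µg/L, 2.79, 1.32, 3.97 and 3.38 CPM at 1 µg/L and 3.91, 3.1, 3.73, 1.08 and 3.74 CPM at 10 µg/L. Libraries 1 and 2 at 0.1 µg/L were thus the highest for eif3ba and the lowest for eif3bb (log2 fold change -1.47, SE 0.58, edgeR adjusted p = 0.173 for eif3bb; -0.37 without them). Few reads lie behind each value of eif3bb. eif3ja and eif3jb, which encode the loosely held subunit that influences recognition of the start codon, had similar levels per kilobase. At 10 µg/L eif3jb had 22.0, 32.3, 45.9, 17.7 and 22.7 CPM, against 31.9, 34.8, 40.2 and 39.7 CPM in controls. Of these, 3 of 5 exposed libraries lay below every control without passing the test (log2 fold change -0.38, SE 0.23, edgeR adjusted p = 0.736). The other subunits were the core scaffold genes eif3c and eif3s10 (eIF3a), the cap-binding subunit eif3d, and eif3ea, eif3eb, eif3ha, eif3hb, eif3i, eif3m and eif3s6ip (eIF3l). Their log2 fold changes lay between 0.24 (eif3eb) and 1.14 (eif3ea) at 0.1 µg/L and between -0.15 (eif3s10) and 0.10 (eif3s6ip) at 10 µg/L. Their lowest edgeR adjusted p at any dose was 0.0864, and without libraries 1 and 2 the log2 fold changes of all 17 eIF3 genes at 0.1 µg/L lay between -0.37 and 0.18.

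eIF4A unwinds the leader of the messenger, and eIF4B and eIF4H stimulate it. eif4a2 had 109.9, 101, 111 and 131 CPM in controls, 111, 107 and 121 CPM at 0.1 µg/L, 114, 111, 119 and 134 CPM at 1 µg/L and 96.0, 93.3, 95.3, 118 and 93.0 CPM at 10 µg/L. At 10 µg/L 4 of 5 libraries lay below every control and library 4 did not, and the difference did not pass (log2 fold change -0.19, SE 0.12, edgeR adjusted p = 0.754). eif4h had 66.2, 89.5, 83.8 and 74.9 CPM in controls, 103, 114 and 79.8 CPM at 0.1 µg/L, 73.8, 95.4, 78.6 and 92.7 CPM at 1 µg/L and 74.6, 92.4, 94.3, 107 and 84.0 CPM at 10 µg/L. Its groups overlapped at each dose, with a log2 fold change of 0.20 (SE 0.15) at 10 µg/L. Of the other 4 tested genes, eif4a1a ranged from 60.4 to 118 CPM and eif4a3, the helicase of the exon junction complex, from 70.0 to 220.4 CPM over the 16 libraries. The eIF4B genes eif4ba and eif4bb ranged from 14.2 to 32.9 CPM and from 12.8 to 95.8 CPM. eif4a3 and eif4bb had both libraries 1 and 2 at 0.1 µg/L above the other 14, and eif4a1a did not. Library 3 at 0.1 µg/L stood at 18.8 CPM for eif4bb, against 95.8 and 72.4 CPM in libraries 1 and 2. eif4a3 at 1 µg/L had 118, 126, 147 and 108 CPM, against 96.4, 116, 86.6 and 84.0 CPM in controls (log2 fold change 0.38, SE 0.22, edgeR adjusted p = 0.998).

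eIF4G bridges eIF4E, eIF4A and eIF3, and none of its 5 genes had both distinct libraries above the other 14. Their median log2 fold change at 0.1 µg/L was 0.01, -0.44 with libraries scaled by size alone and 0.05 without libraries 1 and 2. The eIF3 median was above it under both scalings and below it without those libraries. This difference between the roles was not tested. eif4g2b, a gene for the eIF4G-like factor that lacks the eIF4E binding site, had 206, 208, 227 and 243 CPM in controls, 250.0, 214 and 206 CPM at 0.1 µg/L, 264, 262, 279 and 219.7 CPM at 1 µg/L and 202, 224, 217, 263 and 235 CPM at 10 µg/L. Its 3 values at 0.1 µg/L lay close to the control range, and at 1 µg/L 3 of 4 libraries lay above every control (log2 fold change 0.21, SE 0.13, edgeR adjusted p = 0.998). Its copy eif4g2a had 60.5, 78.7, 57.5 and 40.8 CPM in controls, 28.0, 40.8 and 63.4 CPM at 0.1 µg/L, 63.1, 57.4, 70.9 and 58.3 CPM at 1 µg/L and 71.5, 80.2, 49.0, 83.4 and 60.3 CPM at 10 µg/L. Here libraries 1 and 2 at 0.1 µg/L were among the lowest of the 16, and at 10 µg/L the values overlapped the controls widely (log2 fold change 0.21, SE 0.23, edgeR adjusted p = 0.921). eif4g3b had 11.4, 10.7, 13.3 and 12.8 CPM in controls, 10.8, 16.0 and 14.5 CPM at 0.1 µg/L, 11.7, 15.4, 9.77 and 12.5 CPM at 1 µg/L and 12.7, 18.0, 21.0, 16.1 and 14.8 CPM at 10 µg/L. At 10 µg/L 4 of 5 libraries lay above every control and library 1 lay within the control range (log2 fold change 0.46, SE 0.20, edgeR unadjusted p = 0.0322, adjusted p = 0.527). eif4g3a, the major copy, had 85.8, 90.2, 105, 98.8 and 86.5 CPM at 10 µg/L, against 75.1, 82.7, 86.2 and 91.9 CPM in controls (log2 fold change 0.15, SE 0.11). eif4g1a, the canonical scaffold, lay between 87.2 and 138 CPM in all 16 libraries, with log2 fold changes of 0.02, 0.15 and 0.01 at 0.1, 1 and 10 µg/L.

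Among the cap-binding proteins, eif4e2 and eif4e3 had unadjusted p-values below 0.05 at both 1 and 10 µg/L, in opposite directions. Both doses were compared with the same controls. eif4e2 encodes the homologue 4EHP, which binds the cap without recruiting eIF4G and represses translation, and had 20.7, 19.4, 24.1 and 16.9 CPM in controls, 16.8, 26.1 and 22.0 CPM at 0.1 µg/L, 13.7, 15.3, 13.9 and 19.0 CPM at 1 µg/L and 15.1, 16.3, 17.2, 14.3 and 14.3 CPM at 10 µg/L. At 10 µg/L 4 of 5 libraries lay below every control (log2 fold change -0.40, SE 0.17, edgeR unadjusted p = 0.0342, adjusted p = 0.538), and at 1 µg/L 3 of 4 did (log2 fold change -0.39, SE 0.18, edgeR unadjusted p = 0.0462, adjusted p = 0.998). The 3 libraries at 0.1 µg/L spanned the control range. eif4e3, an atypical cap-binding protein, had 46.3, 46.5, 49.5 and 55.0 CPM in controls, 56.5, 51.6 and 47.8 CPM at 0.1 µg/L, 66.8, 64.0, 65.7 and 56.3 CPM at 1 µg/L and 58.8, 62.3, 65.0, 49.5 and 66.3 CPM at 10 µg/L. At 1 µg/L all 4 libraries lay above every control (log2 fold change 0.36, SE 0.13, edgeR unadjusted p = 0.0129, adjusted p = 0.864), and at 10 µg/L 4 of 5 did, with library 4 inside the control range (log2 fold change 0.29, SE 0.12, edgeR unadjusted p = 0.029, adjusted p = 0.51). In neither gene did libraries 1 and 2 at 0.1 µg/L both lie above the other 14. Both genes also had an unadjusted p below 0.05 at both doses without those libraries, when 5 of 74 factors at 10 µg/L and 7 of 74 at 1 µg/L did, beside 11.3% and 7.54% of all genes, and 0 were called. eif4e2rs1, a sequence related to eif4e2, had 24.8, 33.9, 34.9 and 29.6 CPM in controls, 74.4, 57.3 and 31.5 CPM at 0.1 µg/L, 36.1, 43.9, 37.6 and 31.1 CPM at 1 µg/L and 32.2, 29.2, 35.6, 36.2 and 32.2 CPM at 10 µg/L. It was highest in the 2 distinct libraries, and its other values overlapped (log2 fold change 0.82, SE 0.22, edgeR adjusted p = 0.0864 at 0.1 µg/L; 0.06 without libraries 1 and 2). The canonical cap-binding gene eif4ea had 10.1, 14.8, 10.9 and 11.1 CPM in controls, 12.8, 10.4 and 11.7 CPM at 0.1 µg/L, 13.3, 15.1, 10.9 and 6.75 CPM at 1 µg/L and 13.1, 13.0, 18.0, 14.1 and 11.5 CPM at 10 µg/L. Its groups overlapped at each dose, with the lowest value in library 5 at 1 µg/L. eif4eb was near the detection limit, from 0 to 2.32 CPM.

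**Figure D5:**
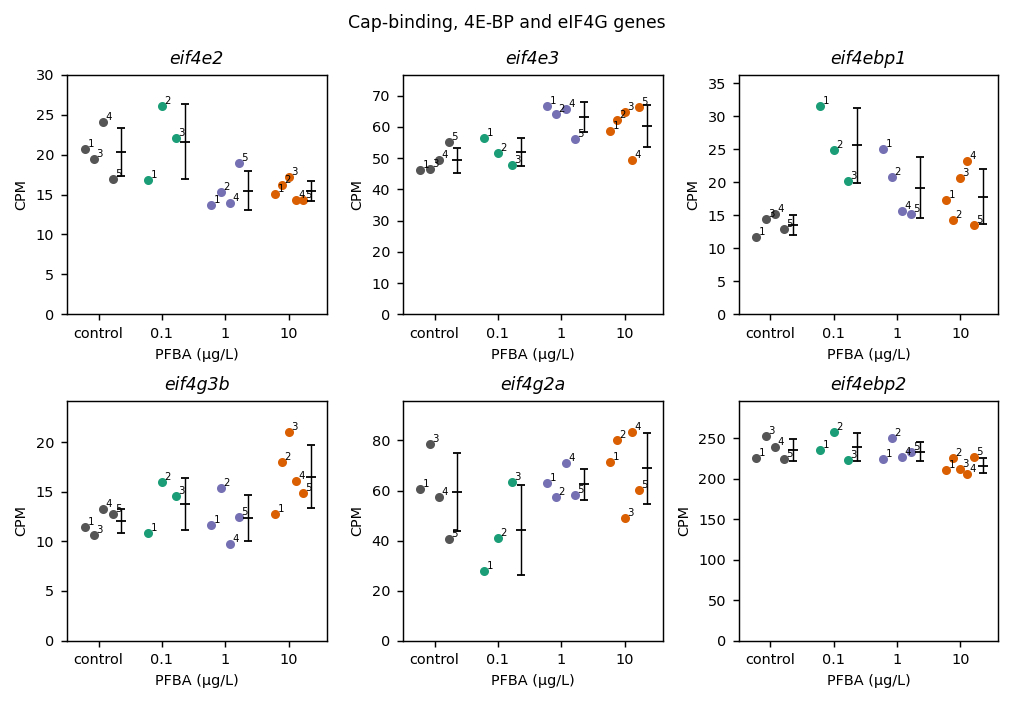
CPM in each library of 6 genes of the cap-binding, eIF4G and eIF4E binding protein groups, by PFBA dose. Library numbers stand beside the points, with mean ± SD bars (n = 4, 3, 4 and 5). In all libraries at 1 and 10 µg/L eif4e2 lies below its control mean of 20.3 CPM and eif4e3 above its control mean of 49.3 CPM. In the edgeR fit of all 16 libraries no test of these 6 genes passed the adjusted threshold. DESeq2 called eif4ebp1 at 0.1 µg/L (DESeq2 adjusted p = 0.00835). Over the 4 groups it called eif4ebp1 (DESeq2 adjusted p = 0.0233) and eif4e2 (DESeq2 adjusted p = 0.0477).

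The 4E-BPs hold eIF4E away from eIF4G until mTORC1 phosphorylates them. eif4ebp1 had 11.7, 14.4, 15.1 and 12.9 CPM in controls, 31.6, 24.9 and 20.2 CPM at 0.1 µg/L, 25.0, 20.8, 15.7 and 15.2 CPM at 1 µg/L and 17.4, 14.2, 20.6, 23.2 and 13.5 CPM at 10 µg/L. All 3 libraries at 0.1 µg/L and all 4 at 1 µg/L lay above every control, libraries 4 and 5 at 1 µg/L by less than 1 CPM. The log2 fold changes were 0.91 (SE 0.24, edgeR adjusted p = 0.0858) at 0.1 µg/L, 0.50 (SE 0.22, adjusted p = 0.998) at 1 µg/L and 0.39 (SE 0.21, adjusted p = 0.694) at 10 µg/L. Without libraries 1 and 2 the value at 0.1 µg/L was 0.61. eif4ebp2, the most abundant of the family per kilobase, had 225, 253, 239 and 224 CPM in controls, 236, 258 and 223 CPM at 0.1 µg/L, 224, 250.0, 227 and 233 CPM at 1 µg/L and 210.5, 225, 212, 206 and 227 CPM at 10 µg/L. Its 16 values lay within 206 and 258 CPM, among the steadiest of the factors. eif4ebp3l had 91.9, 92.0, 79.5 and 73.0 CPM in controls, 207, 145 and 85.7 CPM at 0.1 µg/L, 93.4, 90.7, 153 and 109 CPM at 1 µg/L and 90.0, 53.6, 55.8, 109 and 87.0 CPM at 10 µg/L. At 10 µg/L libraries 2 and 3 lay below every control, while library 4 at 1 and at 10 µg/L lay above them (log2 fold change -0.09, SE 0.25, edgeR adjusted p = 0.994 at 10 µg/L). eif4ebp3 had 44.7, 42.6, 43.8 and 44.4 CPM in controls, 83.2, 55.9 and 42.3 CPM at 0.1 µg/L, 59.6, 44.1, 65.9 and 41.8 CPM at 1 µg/L and 44.6, 24.9, 29.8, 51.8 and 43.2 CPM at 10 µg/L. Its 4 controls lay within 2.2 CPM of each other, and the exposed groups spread to both sides. eif4enif1, the transporter that carries eIF4E into the nucleus and to processing bodies, had 25.1, 24.5, 28.8 and 39.8 CPM in controls, 20.9, 21.7 and 24.7 CPM at 0.1 µg/L, 29.5, 34.6, 24.9 and 30.7 CPM at 1 µg/L and 29.5, 28.5, 45.9, 42.4 and 33.5 CPM at 10 µg/L. Libraries 1 and 2 at 0.1 µg/L were the lowest of the 16, library 3 at that dose lay within the control range, and no test passed (log2 fold change -0.40, SE 0.21, edgeR adjusted p = 0.277 at 0.1 µg/L; -0.23 without them).

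Genes around the factors were taken from lists of related pathways. They held 7 tested genes of termination and recycling, 7 of the hypusine pathway, 19 of mTORC1 and S6 kinase control and 23 of the integrated stress response. A further 9 encode poly(A) binding proteins and partners, 9 mitochondrial translation factors and 27 other cofactors. At 10, 1 and 0.1 µg/L and on the trend 0 of them passed in edgeR. At 10 µg/L, genes higher at an unadjusted p below 0.05 numbered 0, 4, 2, 1, 1, 0 and 1 in the 7 lists in that order. Genes lower at that threshold numbered 0, 0, 2, 4, 0, 0 and 0. Over all genes tested the shares were 3.58% higher and 4.65% lower. Over the 4 groups 6 genes passed, beside 2.34% of all genes. The list for the integrated stress response, the programme that eIF2 alpha phosphorylation starts, also holds endoplasmic reticulum stress genes such as atf6, ern1 and xbp1. Of that list 3 of 23 passed: trib3, cebpb and hspa5. Among those that did not pass were atf4a, atf3, ddit3, asns and ppp1r15a. trib3, a pseudokinase induced by that response, had 66.9, 61.9, 63.5 and 65.1 CPM in controls, 97.8, 76.7 and 64.4 CPM at 0.1 µg/L, 42.8, 38.4, 46.3 and 64.6 CPM at 1 µg/L and 39.8, 40.0, 38.6, 54.1 and 42.0 CPM at 10 µg/L. All 5 libraries at 10 µg/L lay below every control, as did 3 of 4 at 1 µg/L, but neither dose passed alone (log2 fold change -0.58, SE 0.16, edgeR adjusted p = 0.204 at 10 µg/L; 4-group adjusted p = 0.0358). cebpb, a stress and acute-phase transcription factor, had 53.7, 32.3, 26.5 and 29.6 CPM in controls, 63.4, 53.6 and 33.0 CPM at 0.1 µg/L, 15.7, 13.2, 28.4 and 25.9 CPM at 1 µg/L and 19.0, 13.2, 11.8, 23.6 and 18.6 CPM at 10 µg/L. It too lay below every control in all 5 libraries at 10 µg/L (log2 fold change -1.04, SE 0.28, edgeR adjusted p = 0.18; 4-group adjusted p = 0.0338). hspa5, the endoplasmic reticulum chaperone BiP, had 69.8, 94.8, 71.9 and 63.4 CPM in controls, 173, 137 and 83.3 CPM at 0.1 µg/L, 69.0, 93.7, 79.5 and 74.5 CPM at 1 µg/L and 55.2, 70.7, 46.8, 75.8 and 50.9 CPM at 10 µg/L. The highest values were in libraries 1 and 2 at 0.1 µg/L (4-group edgeR adjusted p = 0.0412).

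In mTORC1 and S6 kinase control 2 of 19 passed over the 4 groups: ddit4 and rps6. ddit4, a stress-induced inhibitor of mTORC1, had 109, 129, 151 and 133 CPM in controls, 179.8, 146 and 126 CPM at 0.1 µg/L, 54.1, 47.7, 58.3 and 118 CPM at 1 µg/L and 71.4, 64.7, 68.2, 101 and 83.3 CPM at 10 µg/L. All 5 libraries at 10 µg/L lay below every control, and 3 of 4 at 1 µg/L did (log2 fold change -0.75, SE 0.23, edgeR adjusted p = 0.264 at 10 µg/L; 4-group adjusted p = 0.0405). rps6, the ribosomal protein that S6 kinase phosphorylates, had 1891, 2019, 1847 and 1534 CPM in controls, 7762, 5375 and 1839 CPM at 0.1 µg/L, 2056, 2351, 2532 and 1939 CPM at 1 µg/L and 1882, 1615, 1569, 2871 and 1954 CPM at 10 µg/L. As for eef1a1l1, libraries 1 and 2 at 0.1 µg/L were the highest (4-group edgeR adjusted p = 0.0469). Among other cofactors 1 of 27 passed: ddx3xb, a helicase that aids initiation on structured leaders, had 261, 284, 271 and 266 CPM in controls, 234, 258 and 260.4 CPM at 0.1 µg/L, 376, 333, 338 and 298 CPM at 1 µg/L and 333, 398, 402, 467 and 368 CPM at 10 µg/L. All libraries at 1 and at 10 µg/L lay above every control (log2 fold change 0.54, SE 0.13, edgeR adjusted p = 0.0876 at 10 µg/L; 4-group adjusted p = 0.0374). Without libraries 1 and 2 at 0.1 µg/L none of the 6 kept its 4-group call. The edgeR adjusted p was then 0.13 for ddx3xb, 0.298 for ddit4, 0.322 for trib3, 0.385 for cebpb, 0.767 for hspa5 and 0.975 for rps6. In the lists with 0 calls, the lowest edgeR p-values were taken over the 3 doses, the 4-group test and the trend together. They were those of rack1 and abce1 for termination and recycling, and of sms and oaz1b for the hypusine pathway. For poly(A) binding proteins and partners they were those of pabpc1b and msi1, and for mitochondrial factors those of mtif3 and mtrf1l. In the 4-group test alone the lowest of the hypusine pathway were those of sms and odc1. In the hypusine list 4 of 7 genes (odc1, oaz1a, oaz1b and sms) were higher at 10 µg/L at an unadjusted p below 0.05, beside 3.58% of all genes. The other members were smox, dhps and srm, with log2 fold changes of 0.10, -0.01 and -0.29; dhps encodes the enzyme that starts hypusine formation. odc1 encodes the first enzyme of polyamine synthesis (log2 fold change 0.85, SE 0.30, edgeR unadjusted p = 0.0107, adjusted p = 0.369), and oaz1b an antizyme that restrains it (log2 fold change 0.50, SE 0.17, edgeR unadjusted p = 0.0102, adjusted p = 0.365). These lists were put together with earlier results of the data known, so their counts are a description.

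By rank over the 16 libraries the genes most like eef1da were psmb4, psma4 and psmd14, subunits of the proteasome, with Spearman correlations of log2 CPM of 1.00, 0.99 and 0.98. Among the translation factors eef1g, eef1a1l1 and eif2s2 were closest, at 0.96, 0.95 and 0.94. Over the 14 libraries without 1 and 2 at 0.1 µg/L these 6 values were 1.00, 0.98, 0.97, 0.93, 0.93 and 0.91, in the same order. The copy eef1db stood at 0.62 over 16 libraries and 0.43 over 14. All genes of a library share its depth, scaling and tissue make-up, which differ between libraries, and no test was made of these correlations.

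In the authors' deposited table for 0.1 µg/L, 2 of 77 listed factors had an adjusted p below 0.05, beside 0.28% of all genes in that table. In the authors' deposited table these were eef1da (log2 fold change 1.77, adjusted p = 0.0457) and eif4ebp1 (0.97, adjusted p = 0.0457). In the authors' deposited table for 1 µg/L 0 of 80 and in that for 10 µg/L 0 of 79 did, beside 0.443% and 1.53% of all genes.

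In GRCz11, the build named in the submitters' notes, eef1da (ENSDARG00000102291) lies on chromosome 2 from 50999477 to 51032888 and eef1db (ENSDARG00000030053) on chromosome 20 from 52546186 to 52582645. eif2s2 (ENSDARG00000053047) lies on chromosome 6 from 49995781 to 50011926, eif3k (ENSDARG00000068289) on chromosome 15 from 47845369 to 47848544 and eif6 (ENSDARG00000020232) on chromosome 6 from 52339548 to 52348651. eif4e2 (ENSDARG00000038585) lies on chromosome 2 from 45116819 to 45135618, eif4e3 (ENSDARG00000005078) on chromosome 23 from 10724042 to 10745319 and eif4ebp1 (ENSDARG00000043608) on chromosome 21 from 21013147 to 21020708. These are whole gene spans as deposited. The spans of 16 of the 74 tested factors overlap another listed gene, 12 of them on the same strand and 5 on the opposite strand, 1 on both. They include eif3k, whose overlapping gene had 0 CPM in controls, and eif5b, which shares 818 bases with arhgef7b on the same strand. Among them are also eif3ja, eif2s1b and eif2b4, the last sharing 19979 bases with BX276101.2 on the same strand.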

How the data were processed

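RNA of 16 zebrafish larval samples was sequenced by the authors. Read trimming with fastp, alignment with HISAT2, counting with featureCounts, testing with DESeq2 and the build GRCz11 are named per the submitters' processing notes. The authors deposited a table for each of 3 doses, with raw counts of reads per gene and the same controls in each. Strand setting and annotation release: not given in the sources used here. The deposited log2 fold changes and the deposited p-values are from the authors' own test. The tables were joined by gene identifier. Genes absent from a table got 0 counts for the exposed libraries it holds. Column numbers for controls and 1 µg/L do not match the sample titles, and these columns were placed by group alone. Of the 80 factor identifiers 79 were found in the reference name table.

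Genes were filtered with filterByExpr and tested with edgeR 4.0.16 (R 4.3.3), in a robust quasi-likelihood fit of all 16 libraries without a block (12 residual degrees of freedom). Adjustment was by Benjamini-Hochberg over 19092 genes, with a call at an adjusted p below 0.05. Fits were tested on simulated data. Alternatives used DESeq2 1.42.0, limma-voom (limma 3.58.1), other scalings and filters, and left out libraries. The members, the pathway lists and the libraries left out together were chosen with earlier results of these data known. Members given in full were those called and the 6 with the lowest p per dose and over the 4 groups. The 2 highest per kilobase in each role and copies of all these were given too. Outside that rule eef1e1, eif3ba, eif3bb and eif4enif1 were also given in full. For eif3bb and eif4enif1 both distinct libraries lay below the other 14. From the pathway lists, called genes were named, otherwise the 2 of lowest p in a list over the doses, the 4 groups and the trend. odc1 was chosen after its values were seen.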

Additional observations from a re-analysis of the deposited data

Results flagged for a closer look

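Of 120 checks of single libraries against the rest of their group (groups of 4 or 5), 12 values stood apart by Dixon's test, which flags about 1 group in 20 by chance. At 10 µg/L library 4 was high for 6 genes: eif1 at 1060 CPM (others 624 to 711), eif3f at 462 CPM (others 275 to 326), eif5 at 376 CPM (others 281 to 296), eif5a2 at 236 CPM (others 175 to 192), eif4a2 at 118 CPM (others 93.0 to 96.0) and eif1b at 60.8 CPM (others 42.4 to 46.4). Library 3 at 10 µg/L was high for eif2b4, at 95.2 CPM (others 61.9 to 71.1), and low for eef1a1l2, at 4.42 CPM (others 7.91 to 9.17). At 1 µg/L library 1 was low for eif3k, at 119 CPM (others 139.6 to 143), library 4 was high for eif3g, at 374 CPM (others 361 to 362), and library 5 was low for eif5, at 283 CPM (others 342 to 353). Control library 5 was low for eif3f, at 257 CPM (others 316 to 328). Library 4 at 10 µg/L also had the lowest TMM factor among the 14 libraries other than libraries 1 and 2 at 0.1 µg/L, at 0.93, and its part in these values was not tested.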

How the results depend on the processing

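At 10 µg/L, at 1 µg/L and on the trend 0 of 74 factors were called in each alternative run. At 0.1 µg/L DESeq2 called 30, beside 7.5% of all genes. There, fits that left out 1 library called 0 to 42, with 42 when library 3 of that dose was out. Over the 4 groups, beside 5 calls as reported, DESeq2 called 31, and limma-voom, library size scaling, the replicate block and the fit without libraries 1 and 2 at 0.1 µg/L called 0. Scaling by DESeq2's factors and no filter each called 7. Leaving out 1 library gave 0 to 40: 40 when library 3 at 0.1 µg/L was out, 11 for library 4 at 10 µg/L, and 0 for either distinct library or library 2 at 10 µg/L. Apart from the fit as reported, and DESeq2 at 0.1 µg/L and over the 4 groups, shares over all genes are not given for these settings. Their counts therefore show only how calls moved, and do not set the factors apart from other genes. Leaving out both distinct libraries turned the sign of the log2 fold change at 0.1 µg/L for 34 of 74 factors, 29 of them to below 0. Among the 5 called factors these were eif2s2 (-0.0705) and eef1db (-0.0061), and among others eif5 (-0.14) and eif4bb (-0.87). Deviations of same-numbered libraries from their group means had correlations of -0.441 to 0.447, highest for control library 1 with library 1 at 10 µg/L. The labels tie no numbers across groups to a shared animal, batch or day, so the numbers were not taken as pairs. The causes were not tested.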
